A study of Mus musculus with 8 samples.

Results

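Respiratory complex I was examined at the RNA level in the gastrocnemius (GAS) muscle of mice with prolonged MYTHO knockdown (MYTHO-KD). Its genes were taken from the array table by symbol, as every probe set whose listed gene symbol starts with *Nduf*. This gave 46 of 22206 probe sets and 45 genes, of which 36 encode subunits of complex I, 7 encode *Ndufaf* assembly factors, and 2 (*Ndufa4* and *Ndufa4l2*) carry the name without being counted as subunits here. Male C57/Bl6j mice of about 10 weeks of age received an intramuscular adeno-associated virus (AAV) whose U6 promoter drove a short hairpin RNA against MYTHO in a leg, and a scramble hairpin in the contralateral leg. U6 is active in any transduced cell, so the knockdown was not restricted to muscle fibres by its promoter, and both groups carried AAV. GAS RNA was taken 3 months later, at 22 weeks of age, and hybridized to Clariom S Mouse arrays, 4 arrays of AAV sh-RNA MYTHO and 4 of AAV sh-RNA scrmb (scramble). The authors' table gives an average and a standard deviation (SD) of the normalized log2 signal in each group, so values of single arrays are not shown. Differences are given as MYTHO-KD minus scramble on the log2 scale, where 1 is a 2-fold change.

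Complex I, NADH:ubiquinone oxidoreductase, is the entry point of electrons from NADH into the respiratory chain of the inner mitochondrial membrane. Its peripheral arm reaches into the matrix, where the N module takes electrons from NADH and the Q module passes them to ubiquinone, and its membrane arm pumps protons. The core subunits that carry the catalysis are conserved from bacteria, while the remaining, supernumerary subunits were added in eukaryotes and are needed for assembly and stability. Assembly factors build the modules and are not part of the finished enzyme. In skeletal muscle the complex is abundant, more so in oxidative than in glycolytic fibres. The subunits encoded by mitochondrial DNA were not analysed here.

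The hairpin's target and the tissue were checked first. The target gene, listed by its earlier symbol *D230025D16Rik*, had an average of 7.71 in MYTHO-KD and 10.02 in scramble, which leaves 20.2% of the signal (adjusted p = 0.0138, limma). Its adjusted p was 0.173 without moderation of the variance and 0.363 with unequal variances. These settings leave its difference of -2.31 as it is. All 10 skeletal muscle markers were marked as expressed in both groups, as were all 45 *Nduf* genes. Of these markers *Mb* (0.93) and *Actn2* (0.64) were higher in MYTHO-KD by the unadjusted p in limma's test. The authors' SDs of the *Nduf* genes ran from 0.08 to 0.53 among the MYTHO-KD averages and from 0.03 to 0.74 among those of scramble, and 25 of the 45 had the larger SD in MYTHO-KD. Standard errors of the differences lay between 0.146 and 0.321.

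The RNA of complex I subunits was slightly higher in MYTHO-KD than in scramble GAS, and no *Nduf* gene reached a 2-fold difference. Of the 36 subunits, 29 had a higher average in MYTHO-KD (80.6%) and 7 a lower one, against 46.9% of all probe sets with a higher and 51.4% with a lower average. In RNA of whole muscle, a different number of cells of a type and a different amount of RNA per cell cannot be told apart. The subunits' median difference was 0.145, beside a median of -0.01 over all 22206 probe sets. In limma's moderated test 5 subunits (13.9%) were higher at an unadjusted p under 0.05, namely *Ndufa2*, *Ndufv3*, *Ndufa1*, *Ndufa3* and *Ndufa13*, and no subunit was lower. Over all probe sets 6.48% were called higher and 5.52% lower by this rule, 12% in all. Among the 7408 probe sets at least as bright as the dimmest subunit (a mean of 8.12 on the log2 scale), 10.7% were called higher, 7.51% lower, and 52.8% had a higher average. The median difference of these probe sets was 0.03. The share of subunits called higher was near that of this set, while the share with a higher average lay above it. The set has a lower bound on signal but is not matched to the subunits. Its mean levels were 10.71 in MYTHO-KD and 10.66 in scramble, against 13.70 and 13.51 for the subunits. With p-values adjusted over the whole table no *Nduf* gene passed 0.05 in limma's test, against 0.275% of all probe sets, and none reached 2-fold, against 1.12% of all probe sets at 2-fold with an unadjusted p under 0.05. For 32 of the 36 subunits the 95% interval of the difference lay wholly within 2-fold in either direction. The exceptions were *Ndufa2*, *Ndufv3*, *Ndufa1* and *Ndufb7*, with upper bounds of 1.27, 1.36, 1.08 and 1.18.

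**Figure D1:**
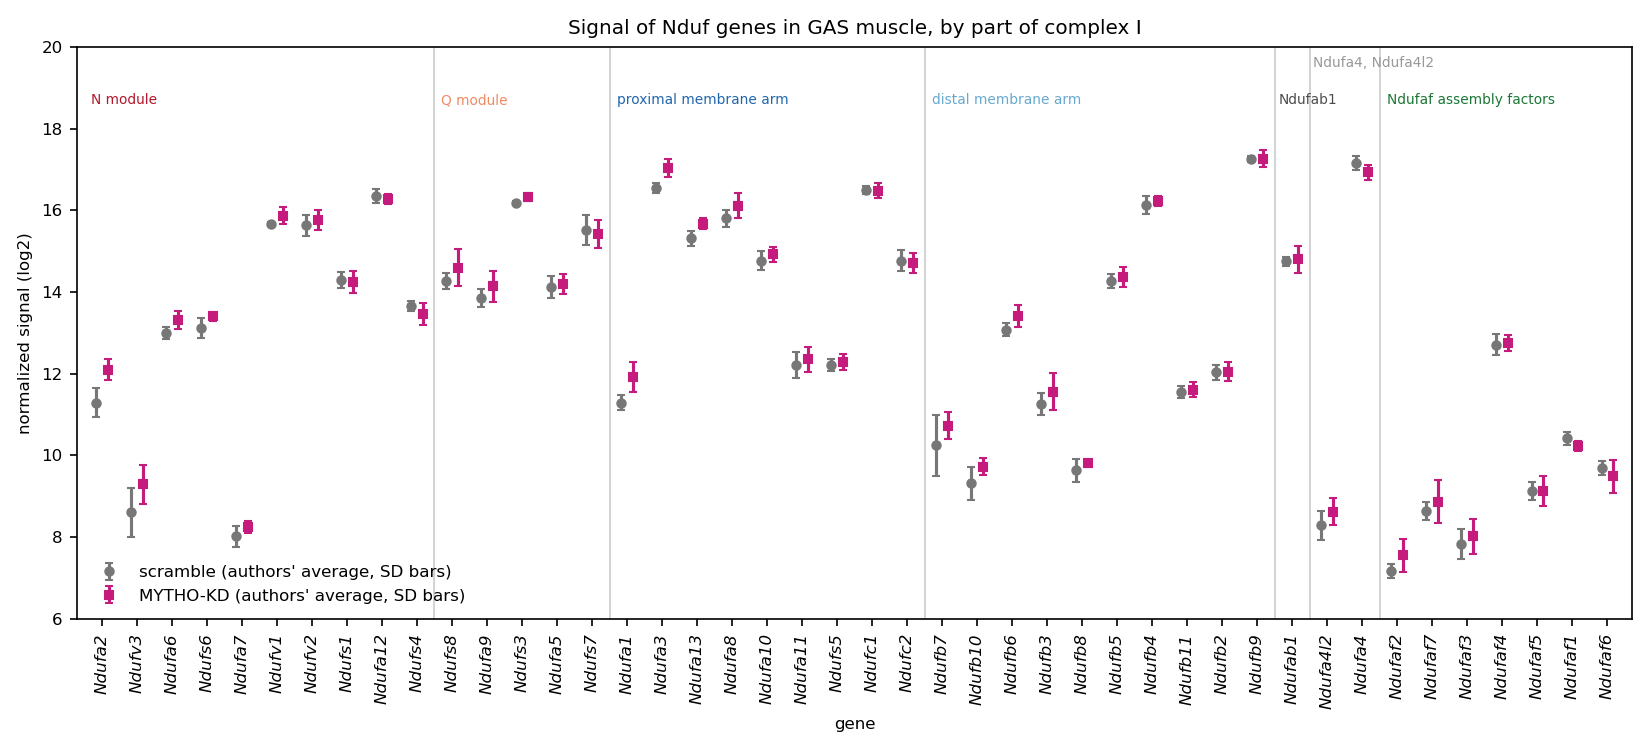
Normalized signal (log2) of *Nduf* genes in scramble (grey circles) and MYTHO-KD (magenta squares) GAS muscle, as the authors' group averages with their SDs as bars, arranged by part of complex I. Levels of different genes come from different probes and are not compared; the pairs of a gene lie close together, with the widest gap of 0.81 at *Ndufa2*.

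The N module takes up NADH and feeds its electrons to a chain of iron-sulfur clusters. Of its 10 subunits 7 were higher, with a median difference of 0.215, and 2 passed the unadjusted p. *Ndufa2*, a small supernumerary subunit with a thioredoxin-like fold, had the largest difference of the complex. Its average was 12.10 (SD 0.26) in MYTHO-KD and 11.29 (SD 0.35) in scramble GAS, a difference of 0.81 (standard error 0.21, unadjusted p = 0.00231, adjusted p = 0.147, limma), which is a 1.75-fold level. *Ndufv3*, a supernumerary subunit on the tip of the arm, lies on mm10 chromosome 17 from 31520115 to 31531326. It had averages of 9.29 and 8.60 with SDs of 0.48 and 0.60, a difference of 0.69 (standard error 0.308, unadjusted p = 0.0448, adjusted p = 0.404, limma). The SDs of *Ndufv3* were the widest of the 5 called genes, and its 95% interval reached down to 0.02. The call of *Ndufv3* was lost without moderation of the variance (unadjusted p = 0.123) and with unequal variances (unadjusted p = 0.125).

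The core of the N module stayed close to scramble. *Ndufv1*, which binds NADH and flavin, had averages of 15.87 and 15.67 (difference 0.20, 95% interval -0.15 to 0.55). *Ndufv2*, an iron-sulfur subunit beside it, had averages of 15.76 and 15.63, with SDs of 0.25 in both groups. *Ndufs1*, the largest subunit, which carries several of the clusters, had averages of 14.24 and 14.29 (difference -0.05, 95% interval -0.45 to 0.35). Each of these intervals spans 0 and excludes a 2-fold change. *Ndufs4*, whose loss destabilizes the N module and causes mitochondrial disease, had the lowest difference of all subunits, at -0.20 (averages 13.46 and 13.66, unadjusted p = 0.275, limma). *Ndufa6* (0.32), *Ndufs6* (0.29), *Ndufa7* (0.23) and *Ndufa12* (-0.07) did not pass either.

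The Q module holds the site where ubiquinone is reduced. Of its 6 subunits 4 were higher, with a median difference of 0.10, and none passed the unadjusted p. *Ndufs7*, which carries the last cluster of the chain, was at 15.41 and 15.52 (difference -0.11, 95% interval -0.60 to 0.38). *Ndufs3* had the smallest pair of SDs of the complex and a difference of 0.13, from 16.19 (SD 0.03) to 16.32 (SD 0.10). *Ndufs8*, another iron-sulfur subunit, had the largest difference of the module, 0.32, from 14.27 to 14.59, with SDs of 0.20 and 0.45 in scramble and MYTHO-KD. *Ndufa9* (0.29) and *Ndufa5* (0.07) are supernumerary. The 7 nuclear-encoded core subunits, all of them in the N and Q modules, had a median difference of 0.13 with 4 higher and 3 lower. The 29 measured supernumerary subunits of the whole complex had a median of 0.17 with 25 higher and 4 lower. All 5 called genes are supernumerary, as are 29 of the 36 measured subunits, so 5 calls are too few to set the core apart. The difference between core and supernumerary subunits was not tested.

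The proximal membrane arm joins the Q module to the proton-pumping part. Of its 9 nuclear-encoded subunits 7 were higher (median 0.15), and 3 passed the unadjusted p. *Ndufa1*, an X-linked single-span membrane subunit (mm10 chromosome X from 37187588 to 37191238), had an average of 11.92 (SD 0.37) in MYTHO-KD and one of 11.29 (SD 0.19) in scramble. Its difference was 0.63 (standard error 0.204, unadjusted p = 0.0096, adjusted p = 0.238, limma). *Ndufa3*, also a small membrane subunit, lies on mm10 chromosome 7 from 3617373 to 3620163. Its averages were 17.03 and 16.55 with SDs of 0.22 and 0.13, a difference of 0.48 (standard error 0.168, unadjusted p = 0.0145, adjusted p = 0.278, limma). The gap of *Ndufa3* was larger than both SDs together, as were those of *Ndufa2*, *Ndufa1* and *Ndufa13* but not that of *Ndufv3*.

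*Ndufa13*, also known as GRIM-19, a subunit that reaches from the membrane into the matrix, lies on mm10 chromosome 8 from 69894180 to 69902558. It was at 15.67 and 15.31 with SDs of 0.14 and 0.19, a difference of 0.36 (standard error 0.164, unadjusted p = 0.049, adjusted p = 0.414, limma). It lies at the edge of the threshold, and its unadjusted p was 0.0501 in limma's test when probe sets naming several genes were left out of the fit. *Ndufa13* is the only *Nduf* gene with a further probe set, which it shares with *Yjefn3* and which had a signal of 6.56 and 6.50 (difference 0.06, unadjusted p = 0.78, limma). The other subunits of the proximal arm had differences between -0.06 (*Ndufc2*) and 0.31 (*Ndufa8*), with *Ndufa10* at 0.15, *Ndufa11* at 0.14, *Ndufs5* at 0.08 and *Ndufc1* at -0.01.

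The distal membrane arm holds the *Ndufb* subunits around the far proton channels. All 10 measured *Ndufb* genes had a higher average in MYTHO-KD, yet by little, with a median difference of 0.135, and none passed the unadjusted p. *Ndufb7*, a subunit on the intermembrane side, had the largest difference, 0.48, from 10.24 to 10.72, and an SD of 0.74 in scramble, the widest of any *Nduf* gene (95% interval -0.22 to 1.18). *Ndufb10* was at 9.72 and 9.31 (difference 0.41, unadjusted p = 0.0797, limma), and *Ndufb6* at 13.41 and 13.07 (difference 0.34, unadjusted p = 0.0835, limma). At the other end *Ndufb9*, which binds the mitochondrial acyl carrier protein, was at 17.26 and 17.25 (difference 0.01), and *Ndufb2* at 12.05 and 12.03 (difference 0.02). *Ndufb3* (0.30), *Ndufb8* (0.17), *Ndufb5* (0.10), *Ndufb4* (0.09) and *Ndufb11* (0.07) lay between them. *Ndufab1*, the acyl carrier protein itself, which sits in both arms and also serves fatty acid synthesis, was at 14.80 and 14.75 (difference 0.05).

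**Figure D2:**
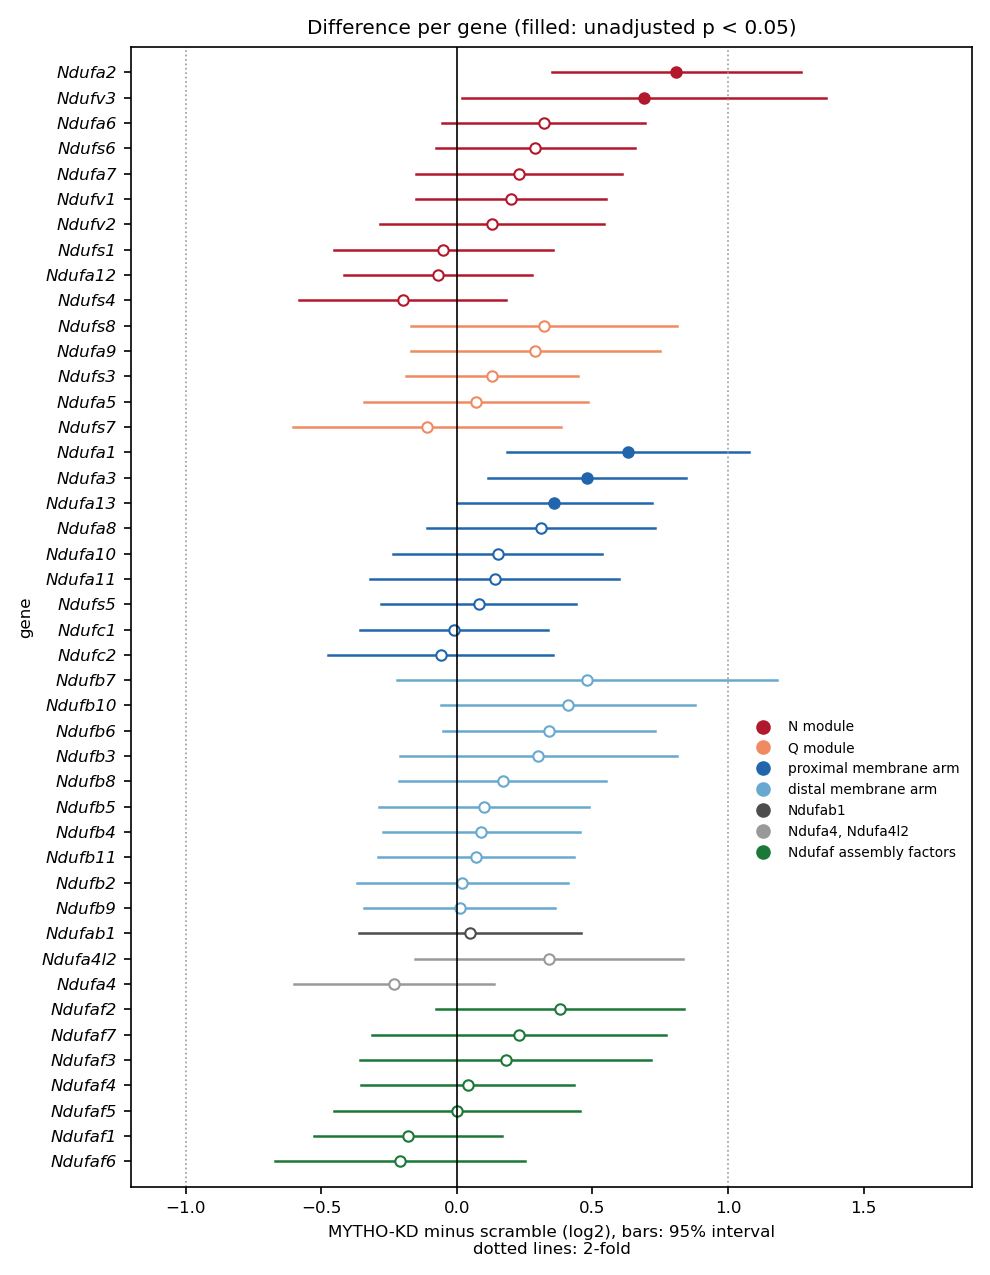
MYTHO-KD minus scramble (log2) for *Nduf* genes, ordered by part of complex I, with its 95% interval from limma's moderated variance; filled points have an unadjusted p under 0.05 and dotted lines mark 2-fold. The 5 filled points lie in the N module and the proximal membrane arm, and most intervals span 0.

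*Ndufa4*, first described with complex I and now counted as a subunit of cytochrome c oxidase, had the lowest difference of all 45 genes. It was at 16.93 (SD 0.19) in MYTHO-KD and at 17.16 (SD 0.18) in scramble (difference -0.23, 95% interval -0.60 to 0.14). Its relative *Ndufa4l2*, which is induced by hypoxia, was at 8.62 and 8.28 with SDs of 0.34 and 0.36 (difference 0.34, unadjusted p = 0.158, limma). Neither passed the test, and counting both among the subunits left 5 higher and 0 lower with the same median of 0.145.

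The *Ndufaf* assembly factors showed no common direction. Of the 7, 4 had a higher average, 2 a lower one and *Ndufaf5* was at 9.12 in both groups, with a median difference of 0.04. Limma's test called none in either direction at an unadjusted p under 0.05, against 12% of all probe sets. At that share 7 genes are too few for this to set them apart. *Ndufaf2*, a late-acting relative of *Ndufa12*, had the largest difference, 0.38, from 7.17 to 7.55 (SDs 0.17 and 0.40, unadjusted p = 0.0948). *Ndufaf7*, a methyltransferase of complex I assembly, was at 8.86 and 8.63 (difference 0.23), and *Ndufaf3*, which acts on the Q module, at 8.01 and 7.83 (difference 0.18). *Ndufaf4*, the partner of *Ndufaf3*, was at 12.75 and 12.71 (difference 0.04). *Ndufaf1*, which helps to build the membrane arm, was at 10.23 and 10.41 (difference -0.18), and *Ndufaf6* at 9.48 and 9.69 (difference -0.21). *Ndufaf8*, the partner of *Ndufaf5*, is listed by the older symbol *1810043H04Rik* and so falls outside the rule; it was at 8.04 and 7.75 (difference 0.29, unadjusted p = 0.145, limma).

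Assembly factors without the *Nduf* name had no common direction either. Of 11 measured, 4 were higher and 7 lower, with a median difference of -0.06. By the unadjusted p 0 were called higher and 1 lower, against 6.48% and 5.52% of all probe sets. *Lyrm2*, an LYR-motif protein linked to N module assembly, was lower by the unadjusted p, at 6.19 in MYTHO-KD and 6.91 in scramble (difference -0.72, unadjusted p = 0.00873, adjusted p = 0.230, limma). *Nubpl*, which delivers iron-sulfur clusters to the complex, had a difference of -0.44 (unadjusted p = 0.0592), and *Acad9*, which acts in membrane arm assembly, one of -0.36 (unadjusted p = 0.0617). *Dmac2* (0.36, listed as *Atp5sl*), *Ecsit* (0.35) and *Dmac1* (0.25, listed as *Tmem261*) lay on the other side without passing. These lists are small, and the difference between subunits and assembly factors was not tested.

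The listed nuclear-encoded subunits of the other complexes of oxidative phosphorylation were shifted the same way by their median, though not in every gene. *Ndufa4* (-0.23) was not counted in the list of complex IV. In complexes II to V, 40 of 43 genes had a higher average (median difference 0.29), 12 were higher at an unadjusted p under 0.05 (27.9%) and 0 lower in limma's test. Their medians were 0.275 in complex II, 0.32 in complex III, 0.32 in complex IV and 0.24 in complex V, each above the 0.145 of complex I subunits, though the difference between complexes was not tested. Of the genes called, those with the lowest p were *Sdhb* (0.49) in complex II, *Uqcrq* (0.61), *Uqcr11* (0.85) and *Uqcrc1* (0.42) in complex III, *Cox7a1* (0.73), *Cox5a* (0.53), *Cox4i1* (0.44) and *Cox5b* (0.44) in complex IV, and *Atp5e* (0.78), *Atp5g2* (0.53) and *Atp5k* (0.51) in complex V. None of these passed the adjusted p. The shift was not limited to the respiratory chain. Beside the counts above and below, 6.48% of all probe sets were called higher and 46.9% had a higher average. Among probe sets at least as bright as the dimmest subunit these shares were 10.7% and 52.8%. Mitochondrial ribosomal proteins had a median difference of 0.15, with 57 of 77 higher, 15 called higher and *Mrpl45* called lower (-1.64, adjusted p = 0.00515, limma). *Mrps26* (0.55), *Mrpl30* (0.70) and *Mrpl55* (0.70) followed it in order of p. Among cytosolic ribosomal proteins the median was 0.23, with 70 of 85 higher, 20 called higher and 0 lower, led by *Rplp0* (1.19, adjusted p = 0.0473, limma), *Rplp1* (0.78), *Rplp2* (0.80) and *Rps28* (0.76).

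**Figure D3:**
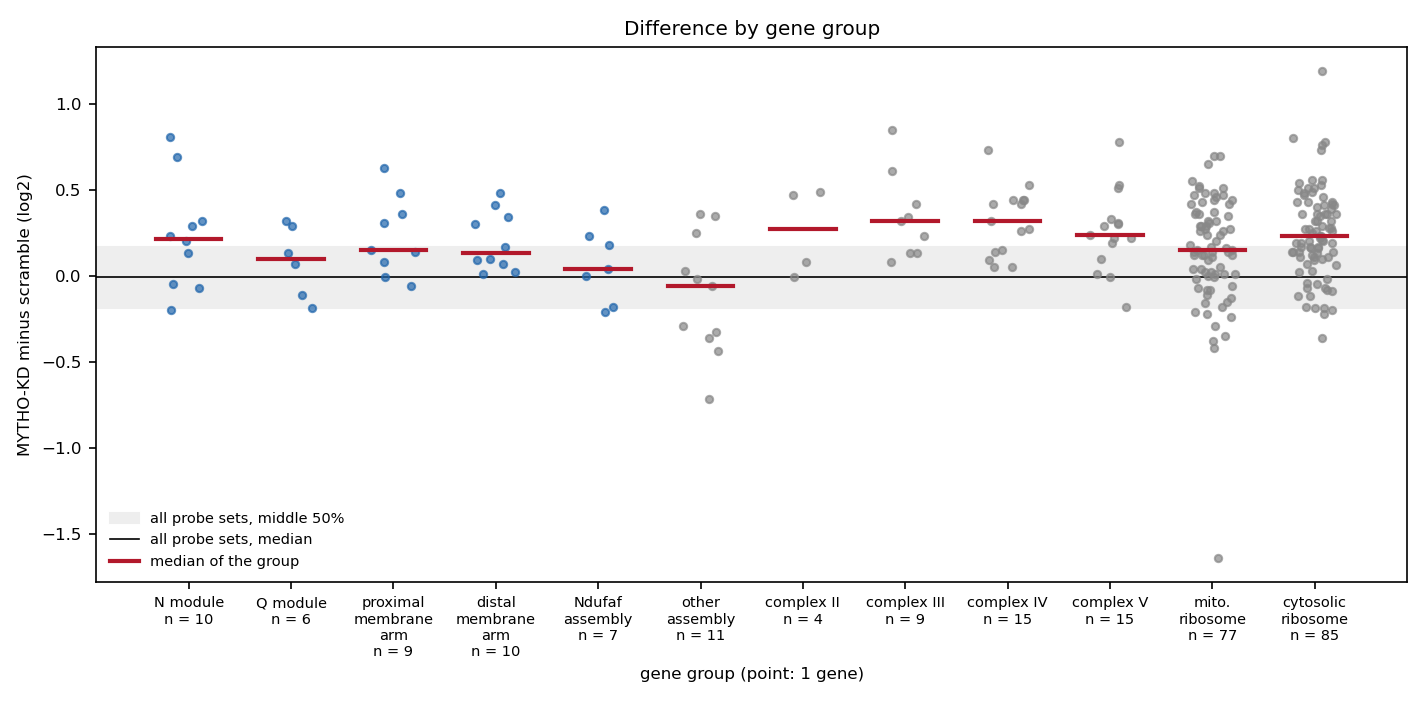
MYTHO-KD minus scramble (log2) for the genes of each group, 1 point per gene with the group's median as a red line; the grey band holds the middle 50% of all probe sets and the black line their median of -0.01. Medians of the complex I modules lie between 0.10 and 0.215, those of complexes II to V between 0.24 and 0.32, and those of both assembly lists near 0.

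Regulators and markers of mitochondrial content had a median difference close to that of the complex I subunits. Of 13 genes 11 were higher (84.6%, against 80.6% of the subunits), with a median difference of 0.15 beside 0.145. Over all probe sets 46.9% had a higher average, and 52.8% of those at least as bright as the dimmest subunit. By the unadjusted p limma's test called 0 of the 13 higher and 1 lower, against 6.48% and 5.52% of all probe sets. *Ppargc1a*, the coactivator that drives mitochondrial biogenesis, was at 13.65 in MYTHO-KD and 13.50 in scramble (difference 0.15), and *Cs*, which encodes citrate synthase, at 16.46 and 16.33 (difference 0.13). *Tfb2m*, a mitochondrial transcription factor, was the only gene of the list to pass the unadjusted p, and it was lower, at 13.38 against 13.79 (difference -0.41, unadjusted p = 0.016, adjusted p = 0.289, limma). *Esrra* (0.47, unadjusted p = 0.058) and *Ppargc1b* (0.53, unadjusted p = 0.0687) did not pass.

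Genes of fibre types and markers of other cells were measured on the same arrays, and their counts stand beside the 12% of all probe sets that passed the unadjusted p in either direction. Of 10 slow and oxidative fibre genes 5 were higher and 5 lower (median 0.16), from -1.03 (*Tnni1*) to 0.93 (*Mb*). By the unadjusted p 2 were higher and 0 lower. The 2 were *Mb*, which encodes myoglobin (0.93, unadjusted p = 0.000409, adjusted p = 0.0754, limma), and *Myh2*, the type IIA myosin heavy chain (0.41, unadjusted p = 0.0197, limma). Signals of both lie near the top of the scale, with *Myh2* at 19.91 (SD 0.01) in MYTHO-KD, where the highest average is 19.93. In another muscle, the tibialis anterior, the paper reports lower *Myh2* RNA by quantitative PCR and a smaller share of type IIA fibres. Of 10 fast glycolytic fibre genes 2 were higher and 6 lower (median -0.045), and *Myh1*, the type IIX myosin heavy chain, passed the unadjusted p (0.59). Most of this list also lies near the top of the scale. *Myh4* and *Atp2a1* were at 19.93 (SD 0) in both groups, where a further rise would not show. The slow genes varied widely within the groups, with a median SD of 2.04 among MYTHO-KD and 0.80 among scramble muscles, reaching 3.67 for *Tnni1* in MYTHO-KD, against 0.53 as the largest SD of an *Nduf* gene there. Of 12 macrophage markers 11 were higher (median 0.575, averages over the list 7.99 and 7.18), 6 by the unadjusted p with *Cd68* (2.53), *Lyz2* (1.94), *C1qb* (1.27) and *Csf1r* (0.99) at the lowest p. All 10 fibroblast markers were higher (median 0.925, averages 10.54 and 9.64), 5 by the unadjusted p with *Bgn* (1.94), *Lum* (1.49), *Col3a1* (1.43) and *Mfap5* (1.08) at the lowest p. All 10 endothelial markers were higher (median 0.355), *Kdr* (0.75), *Eng* (0.64) and *Egfl7* (0.41) by the unadjusted p, and 6 of 8 adipocyte markers lower (median -0.305). No marker of these lists was marked as not expressed. The part of fibre type and cell mix in the *Nduf* differences was not tested.

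Signal strength was set beside the differences. Across the 36 subunits the Spearman correlation between the mean level and the difference was -0.37, a description across genes measured on the same arrays. Differences of 12 subunits were within 0.1 of 0.

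**Figure D4:**
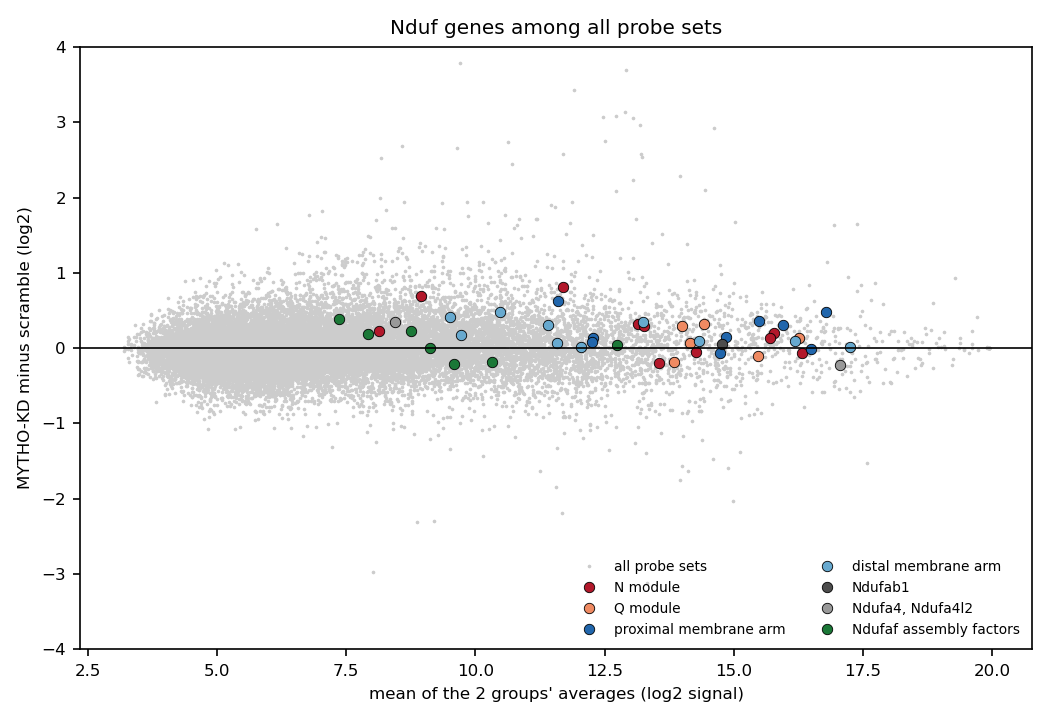
MYTHO-KD minus scramble (log2) against the mean of both group averages (log2 signal), with all 22206 probe sets in grey and the *Nduf* genes coloured by part of complex I. The *Nduf* genes lie between -0.23 and 0.81, inside the cloud of the other probe sets.

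Promoters of the *Nduf* genes were read to see whether the subunits called share a motif of the factors known to control respiratory genes. RefSeq promoters (GRCm38.p6, the same build as mm10), 250 bases before to 50 after the start of transcription, matched 39 of the 45 genes, among them 32 subunits and 4 of the 5 called. Motifs were searched on both strands, and no matches of different motifs overlapped in these genes. The motif of nuclear respiratory factor 1 (NRF1), written GCGCA and GCGC with any base between them, was in 7 of the 32 subunits (21.9%), namely *Ndufa5*, *Ndufa6*, *Ndufa8*, *Ndufa11*, *Ndufb4*, *Ndufs5* and *Ndufs6*, and in 4.60% of all 32851 promoter windows. It was in *Ndufaf4* and *Ndufaf5* among 6 assembly factors. The YY1 motif AAGATGGCG was in 5 subunits (15.6%, against 1.40% of all windows), the ETS motif CCGGAAG in 4 (12.5%, against 8.86%) and the ERR motif AAGGTCA in 3 (9.38%, against 4.72%). None of these letters were in the windows of the 4 called genes. At shares of 21.9% or less among the subunits, 4 genes are too few for this to set them apart. Subunits with the NRF1 letters had a median difference of 0.14, those without 0.17 and those with the YY1 letters -0.01, which is given as a description with no test.

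The 200 bases before the start are shown for 3 of the called subunits, and, for comparison, for a subunit and an assembly factor with an NRF1 match, whose differences were 0.14 and 0.04. Capitals mark the NRF1 letters. The windows are chrX:37191239-37191438 (minus strand) for *Ndufa1*, chr7:3617173-3617372 (plus) for *Ndufa3*, chr17:31519915-31520114 (plus) for *Ndufv3*, chr17:56717562-56717761 (plus) for *Ndufa11* and chr4:24897883-24898082 (plus) for *Ndufaf4*, all on GRCm38.p6.
Ndufa1: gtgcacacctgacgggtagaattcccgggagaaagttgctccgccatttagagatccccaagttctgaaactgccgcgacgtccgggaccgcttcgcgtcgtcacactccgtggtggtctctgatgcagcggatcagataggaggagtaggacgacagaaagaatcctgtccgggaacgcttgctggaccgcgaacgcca
Ndufa3: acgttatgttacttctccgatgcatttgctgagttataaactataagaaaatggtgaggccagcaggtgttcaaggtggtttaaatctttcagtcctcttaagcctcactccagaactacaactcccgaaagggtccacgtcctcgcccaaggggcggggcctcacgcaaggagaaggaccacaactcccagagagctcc
Ndufv3: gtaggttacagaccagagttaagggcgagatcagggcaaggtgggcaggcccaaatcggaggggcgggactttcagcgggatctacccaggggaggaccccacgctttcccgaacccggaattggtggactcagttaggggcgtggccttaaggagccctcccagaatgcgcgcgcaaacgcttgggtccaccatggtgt
Ndufa11: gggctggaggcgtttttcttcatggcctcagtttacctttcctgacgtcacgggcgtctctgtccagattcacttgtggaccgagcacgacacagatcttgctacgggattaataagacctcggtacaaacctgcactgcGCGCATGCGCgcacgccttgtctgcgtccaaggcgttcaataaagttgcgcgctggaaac
Ndufaf4: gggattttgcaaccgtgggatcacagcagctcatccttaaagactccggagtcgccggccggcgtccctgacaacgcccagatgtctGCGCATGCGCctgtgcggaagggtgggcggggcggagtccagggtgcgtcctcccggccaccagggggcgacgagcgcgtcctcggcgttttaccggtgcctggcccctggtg
The matches of *Ndufa11* and *Ndufaf4* begin at positions -60 and -113 from the start, and these letters were not found in the windows of *Ndufa1*, *Ndufa3* and *Ndufv3*.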

How the data were processed

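RNA of 8 GAS muscles was measured on Clariom S Mouse arrays. Normalization by the authors used SST-RMA (Transcriptome Analysis Console 4.0.1, default parameters), and they deposited averages and SDs on the log2 scale for each group, written with a decimal comma. SST-RMA adds a signal space transformation to RMA, which widens differences between groups. The deposited table has 28 columns, and its fold changes, p-values and false discovery rates were not used; 0 columns of single arrays were left unused. Groups came from the sample titles. No source used here ties an array to a mouse, so p-values measure the spread between these samples.

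The test was limma's moderated test (limma 3.58.1, R 4.3.3), computed from the averages and SDs of all 22206 probe sets with 4 arrays per group, pooled variances with 6 residual degrees of freedom, squeezeVar (prior SD 0.284, 5.85 prior degrees of freedom), two-sided p-values and Benjamini-Hochberg adjustment. The kind of average is not stated; if it is not a plain mean, p-values are only approximate. The calculation was tested on simulated data. Where a gene had more than 1 probe set, the brightest on average stood for it. Lists of modules, assembly factors, fibre types and cell markers, and the members themselves, were chosen with earlier results of these data known. By the rule for named genes, every *Nduf* gene is given except 1, which is counted but not reported here, and of other lists those with the lowest p, with *Ppargc1a*, *Cs*, *Esrra*, *Ppargc1b*, *Nubpl*, *Acad9*, *Dmac1*, *Dmac2*, *Ecsit* and *Tnni1* added after their values were seen. Gene symbols were updated through RefSeq (GRCm38.p6). Alternatives were the variance left without moderation, a robust trend of the prior variance with signal, unequal variances, removal of probe sets under the 30th percentile of signal (5.72 on the log2 scale), probe sets naming 1 gene, the probe set with the lowest SD, and *Ndufa4* and *Ndufa4l2* counted among the subunits. Figures were drawn with matplotlib 3.10.9.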

Additional observations from a re-analysis of the deposited data

How the results depend on the processing

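The counts of *Nduf* genes called were the same, or within 1 gene, under every alternative run. The medians of subunits (0.145) and *Ndufaf* assembly factors (0.04) did not change either, which for most alternatives was fixed in advance. The alternatives for the variance leave each difference as it is, and only *Ndufa13* had a further probe set to choose. Between 4 and 5 subunits were higher at an unadjusted p under 0.05 and 0 lower, and no *Nduf* gene passed the adjusted p or 2-fold in any. Among single members, *Ndufv3* lost its call without moderation (unadjusted p = 0.123) and with unequal variances (unadjusted p = 0.125), *Ndufa13* lost it with probe sets naming 1 gene (unadjusted p = 0.0501), and *Ndufs3* gained one without moderation (unadjusted p = 0.0471). The difference of the target *D230025D16Rik* (-2.31) cannot change with the treatment of the variance. Its adjusted p was 0.173 without moderation and 0.363 with unequal variances. In both, fewer degrees of freedom stand behind the variance. The gene's own SDs (0.66 in MYTHO-KD, 0.37 in scramble) are then also not drawn toward the prior SD of 0.284. Counting *Ndufa4* and *Ndufa4l2* as subunits was an alternative added after the data were seen. No paired analysis was possible because the table holds group averages and not the values of single arrays; for the same reason no array was left out in turn. With 4 arrays per group, standard errors of 0.146 or more leave most differences of this size undetectable, and the scale leaves little room above the brightest probe sets.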
